A study of Mus musculus with 32 samples.

Results

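Heme breakdown and iron handling were followed through 9 genes of the 16593 named genes on the array: Hmox1, Blvrb, Hpx, Cd163, Slc40a1, Slc11a1, Hamp, Fth1 and Ftl1. They were chosen by symbol, and the probe with the highest mean over all arrays stood for each gene. Male NIH Swiss mice aged 7 weeks had received 1 intravenous injection of CBL0137 (30, 60 or 90 mg/kg) or of the vehicle, 5% dextrose, and spleen, liver, lung and testis were taken 24 hours later. CBL0137 is a DNA-binding small molecule that acts on the histone chaperone FACT. Every combination of organ and dose, 16 in all, was measured on 2 of the 32 Illumina arrays. Whether the 2 arrays stand for different mice is not stated in the labels. The p-values therefore rest on array-to-array spread, which may be technical, and the small number of arrays limits the precision. With 2 arrays a group, arrays of 2 groups can lie apart without a change, and the share of all genes doing so is not given.

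Red cells that have aged are taken up by macrophages of the spleen and liver, which open the heme ring, release its iron and either store it in ferritin or export it to plasma. Heme oxygenase 1 (Hmox1) opens the ring to biliverdin, and biliverdin reductase B (Blvrb) is a reductase of heme breakdown products that is abundant in red cells. Free heme and hemoglobin in plasma are bound by hemopexin (Hpx) and haptoglobin, and Cd163 is the macrophage receptor for hemoglobin bound to haptoglobin. Ferroportin (Slc40a1) exports iron from the cell, Slc11a1 (Nramp1) moves divalent metals out of the phagosome of macrophages, hepcidin (Hamp) is the liver hormone that removes ferroportin from the cell surface, and Fth1 and Ftl1 encode the heavy and light chains of ferritin.

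Promoter sequences are shown for the pair of members whose brightest organ was the liver, Hamp and Hpx, and for the member that passed the test in spleen at the highest dose, Slc11a1. They are the 250 bases before the annotated start, 5′ to 3′ on the gene's strand, from RefSeq on GRCm38.p6, which listed such a window for 7 of the 9 members. Capitals mark letters that matched a searched motif.
Hamp, chr7:30944030-30944279, minus strand: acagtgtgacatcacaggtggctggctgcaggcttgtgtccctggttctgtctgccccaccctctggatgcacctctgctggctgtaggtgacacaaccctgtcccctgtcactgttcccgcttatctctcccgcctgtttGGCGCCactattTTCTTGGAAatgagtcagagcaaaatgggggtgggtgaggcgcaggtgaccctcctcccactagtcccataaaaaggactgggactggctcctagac
Hpx, chr7:105600117-105600366, minus strand: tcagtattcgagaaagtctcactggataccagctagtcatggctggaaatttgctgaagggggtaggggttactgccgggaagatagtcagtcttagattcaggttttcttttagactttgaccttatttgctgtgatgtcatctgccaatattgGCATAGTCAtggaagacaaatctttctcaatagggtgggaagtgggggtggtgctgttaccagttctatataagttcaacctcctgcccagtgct
Slc11a1, chr1:74374953-74375202, plus strand: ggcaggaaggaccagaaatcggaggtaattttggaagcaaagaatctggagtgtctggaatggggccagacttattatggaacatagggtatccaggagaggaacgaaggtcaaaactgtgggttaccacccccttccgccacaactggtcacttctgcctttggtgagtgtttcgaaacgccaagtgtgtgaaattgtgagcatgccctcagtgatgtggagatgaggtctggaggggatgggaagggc

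The search covered both strands. The Hamp window held GGCGCC, the letters of a BMP-responsive element, starting at base -109, and a STAT site core of the form TTCNNNGAA starting at base -97. The Hpx window held the antioxidant response element core TGACNNNGC on the other strand, starting at base -95. The Slc11a1 window held none of these and no interferon-stimulated response element core. Of 32851 such windows, each of 300 bases with the 50 after the start included, 11.9% held GGCGCC, 8.3% TTCNNNGAA, 12.4% TGACNNNGC and 3.44% the interferon-stimulated response element core. The iron responsive element loop CAGTGN, an RNA motif too short to tell windows apart, was in 55.8% of them and in all 3 windows shown, and is not capitalised. None of the searched motifs overlapped another within the capitals. A match describes the letters only.

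The deposited intensities were on 1 scale for all arrays, and 22.01% to 22.47% of the values of an array lay below 0 after the authors' background subtraction. A probe counted as above background if it exceeded 1.645 times the noise SD of its array, a threshold of 7.82 to 7.914 intensity units. The noise SD was estimated from the values below 0. As all arrays shared nearly 1 distribution of values, this was close to a fixed rank. Between 55.361% and 55.956% of probes lay above it on each array. Liver arrays showed 11 or 12 of 12 hepatocyte markers above background at vehicle and 90 mg/kg, testis arrays 11 of 11 spermatid markers, and spleen arrays 6 of 7 lymphocyte markers. Some arrays also carried signal of another organ. The level of 68 testis-bright probes stood at 2.73% and 5.63% of the testis level in the vehicle spleen arrays, against 0.0182% to 1.15% in the treated spleen arrays. Hepatocyte markers stood at a median of 0.2% to 10.3% of their vehicle liver level in the lung arrays and at most 0.362% in the spleen arrays.

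In the vehicle arrays the members fell into a group led by the spleen and a group led by the liver. Ferroportin, Blvrb, Slc11a1 and Hmox1 were higher in spleen than in any other organ, by limma with Benjamini-Hochberg adjustment over all genes tested. Hpx and Hamp were higher in liver than in any other organ. Fth1 did not pass the test between spleen, liver and lung and was lower in testis. Of the 8 members tested, 6 differed between spleen and liver where 57.8% of all genes did, and 7 between spleen and lung where 47.4% did. The other pairs of organs gave 6 for spleen and testis (64.8% of all genes), 4 for liver and lung (53.1%), 8 for liver and testis (65.9%) and 6 for lung and testis (67%). In whole organs, fewer cells of a type and less RNA per cell cannot be told apart.

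**Figure D1:**
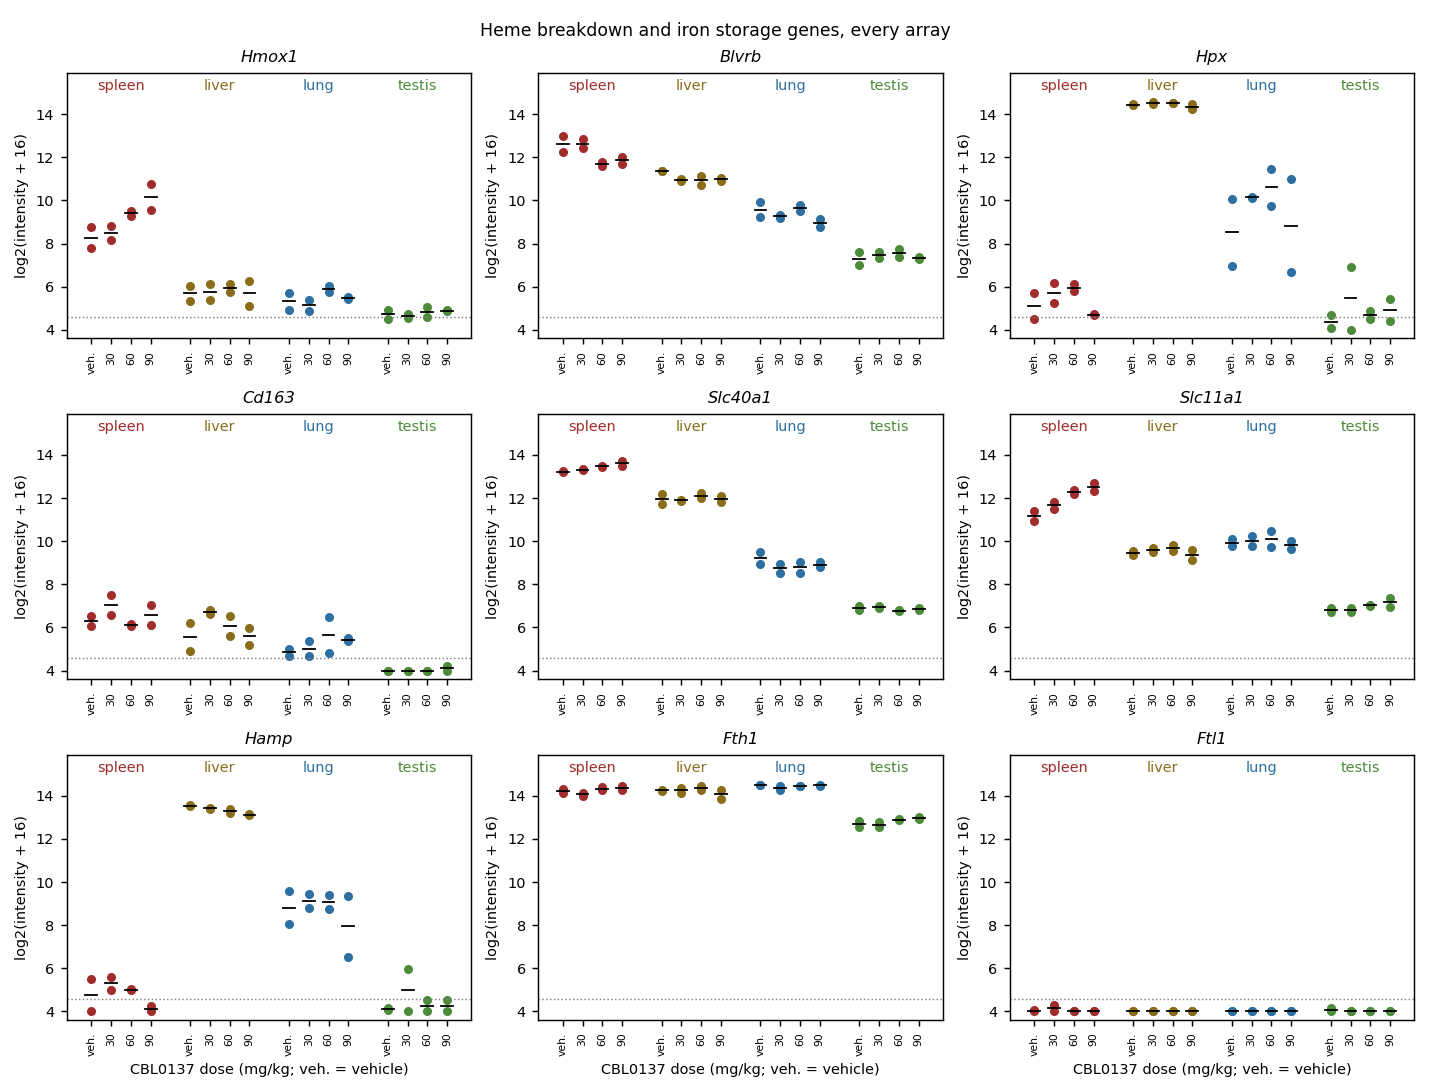
Log2(intensity + 16) of each member on all 32 arrays by organ and dose (mg/kg, veh. = vehicle), with points for arrays, short lines for group means and a dotted line at the detection threshold. Hmox1 and Slc11a1 are highest in spleen at 60 and 90 mg/kg, Hpx and Hamp are highest in liver, and Ftl1 lies under the threshold on every array.

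Hmox1 lies on chromosome 8 at 75093618-75100593 of GRCm38.p6. Its vehicle intensities were 418.3 and 202.6 in spleen, 24.4 and 49.8 in liver, 36.3 and 14.7 in lung, and 14.1 and 6.9 in testis. Both spleen arrays lay above all arrays of the other organs, and only 1 of the 2 testis arrays was above background. Spleen exceeded liver by 2.58 ± 0.42 on the log2(intensity + 16) scale (SE; adjusted p = 1.427e-05) and lung by 2.94 ± 0.42 (adjusted p = 4.261e-06), while liver and lung differed by 0.36 ± 0.42 (adjusted p = 0.49). Liver exceeded testis by 0.97 ± 0.42 (adjusted p = 0.0454), a call that ended without liver vehicle replicate 2 (adjusted p = 0.299) and without either testis vehicle array (0.0591 and 0.21). This scale understates the changes of dim probes.

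Slc40a1, on chromosome 1 at 45908070-45926532, read 9353.7 and 9662.5 in vehicle spleen, 4668.8 and 3355.1 in liver, 699.3 and 478.1 in lung and 95.4 and 113.1 in testis. No organ overlapped another. The log2 difference was 1.26 ± 0.21 between spleen and liver (adjusted p = 2.649e-05; 0.159 at the same size with a hepatocyte share taken off the arrays of the other organs, an alternative added after seeing the data), 2.74 ± 0.21 between liver and lung (adjusted p = 3.03e-10), and 6.31 ± 0.21 between spleen and testis (adjusted p = 5.438e-16).

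Blvrb, on chromosome 7 at 27447978-27465981, showed the same order, with 8172 and 4917.3 in vehicle spleen, 2607.8 and 2632.1 in liver, 959.4 and 582.9 in lung, and 113.6 and 176.9 in testis. Spleen exceeded liver by 1.27 ± 0.26 (adjusted p = 0.000257), and liver exceeded lung by 1.79 ± 0.26 (adjusted p = 4.848e-06). Erythroid markers, whose cells carry Blvrb protein, had a summed intensity of 28954.5 to 54007.5 over 16 genes in the vehicle spleen arrays and 1056.5 to 1379.9 in the vehicle liver arrays. Their part in the Blvrb level was not tested.

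Slc11a1, on chromosome 1 at 74375014-74386057, read 2652.3 and 1966.1 in vehicle spleen, 1080.7 and 864 in lung, 720.5 and 636.9 in liver, and 103.2 and 88.4 in testis. The arrays of the organs did not overlap, but lung and liver differed by 0.50 ± 0.25 (log2, adjusted p = 0.101) and so not beyond the threshold. Spleen exceeded lung by 1.23 ± 0.25 (adjusted p = 0.000352) and liver by 1.73 ± 0.25 (adjusted p = 3.744e-06).

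Cd163, on chromosome 6 at 124304636-124330529, was dim. Its brighter probe read 50.4 and 75.2 in vehicle spleen, 14 and 56.8 in liver, 16.4 and 9.4 in lung, and was above background on 0 of the 8 testis arrays. Spleen and liver overlapped, and their log2 difference was 0.74 ± 0.46 (adjusted p = 0.183). Spleen exceeded lung by 1.44 ± 0.46 (adjusted p = 0.0134), a call that ended without spleen vehicle replicate 2 (adjusted p = 0.103) or lung vehicle replicate 2 (0.0914). Against testis, where the dimmer side was set no lower than the lowest signal above background, spleen was at least 3.26-fold brighter (adjusted p = 0.000153), liver at least 1.96-fold (0.00542) and lung at least 1.2-fold (0.115, not passing). The liver call over testis ended without liver vehicle replicate 2 (adjusted p = 0.141). The other Cd163 probe was above background on 1 of the 32 arrays.

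Hpx, on chromosome 7 at 105591611-105600116, read 22635.5 and 22061.8 in vehicle liver, among the 13 brightest of 25697 probes on each of the liver arrays. The vehicle lung arrays gave 108.6 and 1067.1, the spleen arrays 36.7 and 6.6, and the testis arrays 9.5 and 0.8. Liver exceeded lung by 5.93 ± 1.02 (log2, adjusted p = 3.431e-05) and spleen by 9.34 ± 1.02 (adjusted p = 5.176e-08), with 1 of 2 spleen arrays above background and the liver arrays near the top of the intensity range, so these sizes are approximate. The lung pair lay far apart for Hpx, and the calls of lung over spleen and lung over testis ended without the brighter lung array, with adjusted p = 0.214 and 0.0515. The call over spleen also ended without spleen vehicle replicate 2 (0.0839). With the hepatocyte share taken off, both calls ended, and the spleen minus lung difference went from -3.41 to -0.03 (adjusted p = 0.982) and the lung minus testis difference from 4.15 to 0.03 (0.978). On the vehicle lung arrays that share was 0.483% and 6.61% of the liver level, beside 0.486% and 4.77% for Hpx. The subtraction thus left little or no Hpx signal on them.

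Hamp, on chromosome 7 at 30942368-30944029, read 12218.8 and 11651.2 in vehicle liver, 248.3 and 747 in lung, 29.1 and -4.6 in spleen, and was not above background in vehicle testis. Liver exceeded lung by 4.73 ± 0.66 (log2, adjusted p = 2.393e-06), and was at least 499.9-fold brighter than testis (adjusted p = 1.769e-11). Spleen minus lung was -4.06, and -1.85 with the hepatocyte share taken off (adjusted p = 0.0253). On lung vehicle replicate 2 that share was 6.61% of the liver level, beside 6.26% for Hamp. On spleen vehicle replicate 1 it was 0.362%, beside 0.244%. Both arrays and spleen vehicle replicate 2 were floored at 0 after the subtraction, so the -1.85 rests on lung vehicle replicate 1. The second hepcidin gene, Hamp2, which is no member, was also a liver signal, at 2207.3 and 2516 in vehicle liver against 2.5 and 1.4 in vehicle spleen, not above background.

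The ferritin heavy chain probe was near the top of the intensity range. Fth1, on chromosome 19 at 9980600-9985111, read 20225.2 and 17846.4 in vehicle spleen, 19213.9 and 19722.2 in liver, 23250.9 on both lung arrays, and 6024.8 and 7200 in testis. It was among the 32 brightest of 25697 probes on every spleen, liver and lung array, where the intensities of the whole array end at 24070.3, so differences there may be compressed. Testis was lower than spleen by 1.53 ± 0.17 (log2, adjusted p = 2.947e-08). With the mean of both Fth1 probes, spleen and liver were also below lung (log2 -0.37, adjusted p = 0.0269, and -0.33, adjusted p = 0.0429). The only Ftl1 probe, for the light chain on chromosome 7 at 45457944-45459886, lay between -10.7 and 3.7 and was above background on 0 of 32 arrays, so Ftl1 was not tested in any organ. Whether that probe measures its transcript was not tested.

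After CBL0137, the spleen was the organ in which members passed the test. Slc11a1 rose at 90 mg/kg, and Slc11a1 and Hmox1 rose with dose. At 90 mg/kg 1 of 8 members tested was called (4.27% of all genes, 2.09% higher), and by slope 2 of 8 were called (5.11% of all genes, 3.44% higher). At 30 and 60 mg/kg limma called 0 of 8 (3.13% and 1.9% of all genes), with 0 and 3 members at an unadjusted p under 0.05, where 1412 and 2365 of all 11101 genes had one. The median log2 change of the 8 tested members at 90 mg/kg was 0.22, beside 0.08 over all genes.

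Slc11a1 intensities in spleen were 2652.3 and 1966.1 at vehicle, 2903.8 and 3638.3 at 30 mg/kg, 4708.9 and 5256.7 at 60 mg/kg, and 5083.8 and 6562.7 at 90 mg/kg. Every treated array lay above both vehicle arrays, and the 60 and 90 mg/kg groups overlapped each other. The group mean rose from 2309 ± 485 (SD, n = 2) to 5823 ± 1046 at 90 mg/kg, 2.52-fold (log2 1.33 ± 0.23, adjusted p = 0.0354). The change was 0.51 ± 0.23 at 30 mg/kg (adjusted p = 0.436) and 1.12 ± 0.23 at 60 mg/kg (adjusted p = 0.0526), and the slope was 0.46 ± 0.07 per 30 mg/kg (adjusted p = 0.0139). The call at 90 mg/kg ended when any 1 of the 8 spleen arrays was left out (log2 1.12 to 1.55, adjusted p 0.0517 to 0.172), and the slope call ended without vehicle replicate 1 (0.0558) or 90 mg/kg replicate 2 (0.057).

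Slc11a1 had 3 further probes, all dimmer and all above background on the 8 spleen arrays. In a fit over 16315 probes their log2 changes at 90 mg/kg were 1.67 ± 0.21 (adjusted p = 0.0164), 1.16 ± 0.22 (adjusted p = 0.0423) and 1.13 ± 0.32 (adjusted p = 0.0817). All 4 probes were thus higher at 90 mg/kg, and 3 of them passed. Probes of 1 gene share its RNA and are not replicates.

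Hmox1 in spleen read 418.3 and 202.6 at vehicle, 269.6 and 432.6 at 30 mg/kg, 599.7 and 720.5 at 60 mg/kg, and 738.5 and 1711.9 at 90 mg/kg. The vehicle and 30 mg/kg groups overlapped, and all 60 and 90 mg/kg arrays lay above both. The slope was 0.66 ± 0.14 per 30 mg/kg (log2, adjusted p = 0.0363). At 90 mg/kg alone the mean was 1225 ± 688 against 310.4 ± 153 (SD, n = 2 each), a log2 difference of 1.89 ± 0.46 that did not pass (3.71-fold, adjusted p = 0.0558), and at 60 mg/kg it was 1.13 ± 0.46 (adjusted p = 0.206). The slope call ended without either vehicle array, 30 mg/kg replicate 2, either 60 mg/kg array or 90 mg/kg replicate 2 (slopes 0.50 to 0.81, adjusted p up to 0.105).

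**Figure D2:**
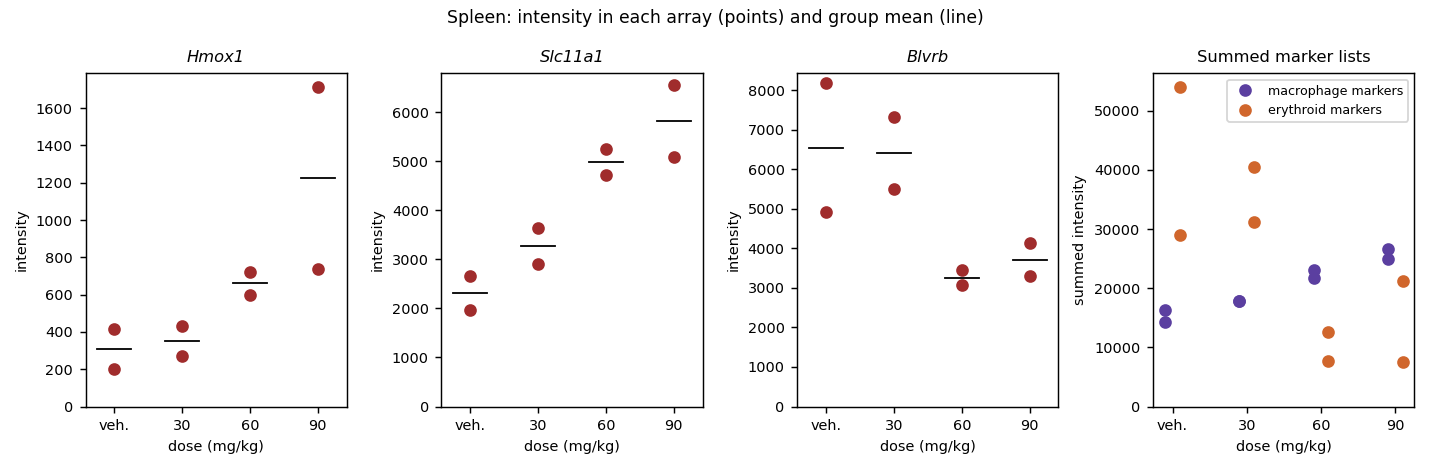
Spleen intensities of Hmox1, Slc11a1 and Blvrb on each array by dose (points) with the group mean (line), and the summed intensities of resident macrophage and erythroid markers on the same arrays. Hmox1, Slc11a1 and the macrophage sum are highest at 90 mg/kg, at 24968 to 26579 for the sum, while Blvrb and the erythroid sum are lower at 60 and 90 mg/kg than at vehicle.

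Most markers in a list for resident macrophages (red pulp and Kupffer cells) moved with both genes. Of the 12 marker genes tested, 10 lay above 0 and 2 below at 90 mg/kg. Limma called 7 as higher, where 2.09% of all genes were. Among them were the complement genes C1qa (log2 1.60 ± 0.24, adjusted p = 0.0264) and C1qb (1.29 ± 0.17, adjusted p = 0.0186) and the sialic acid receptor Siglec1 (1.79 ± 0.34, adjusted p = 0.0397). With the replicate number as a block in the fit, 2 were called. The list's median was 1.08, beside 0.08 over all genes. The count of 7 depended on single arrays: it was 0 without vehicle replicate 1 or 90 mg/kg replicate 2 and 2 to 5 without any other spleen array, while the median stayed between 0.98 and 1.11. The summed intensity of its 14 genes was 14309.1 to 16387.8 at vehicle, 17796.8 to 17883.3 at 30 mg/kg, 21787.3 to 23142.9 at 60 mg/kg and 24968 to 26578.5 at 90 mg/kg, with no overlap between the groups. Endothelial markers were higher on the same arrays: 6 of 6 tested lay above 0 at 90 mg/kg, with a median of 0.61, and 1 was called (Ramp2, a receptor activity modifying protein, 0.98 ± 0.21, adjusted p = 0.0468; 0 without any 1 of the 8 spleen arrays). Their summed intensity over 7 genes was 2040.7 to 2598.1 at vehicle and 3603.4 to 4161.5 at 90 mg/kg, with no overlap. The part of either cell type in the Slc11a1 and Hmox1 values was not tested. With the testis share taken off each spleen array, the 90 mg/kg change of Slc11a1 was 1.34 (adjusted p = 0.0281) and that of Hmox1 1.89 (adjusted p = 0.0601).

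Blvrb ran the other way in spleen without passing the test. It read 8172 and 4917.3 at vehicle, 5490.1 and 7315.1 at 30 mg/kg, 3062.5 and 3454.7 at 60 mg/kg, and 3294.3 and 4123.3 at 90 mg/kg. All 4 arrays at 60 and 90 mg/kg lay below all 4 at vehicle and 30 mg/kg. The log2 differences from vehicle were -0.96 ± 0.28 at 60 mg/kg (adjusted p = 0.0959) and -0.78 ± 0.28 at 90 mg/kg (adjusted p = 0.134). In 1 fit over all 32 arrays, Blvrb was called at 60 mg/kg (adjusted p = 0.018) and by slope (-0.33 per 30 mg/kg, adjusted p = 0.0175, against 0.104 in the spleen fit). Erythroid markers were lower in the same arrays: 13 of 14 lay below 0 at 90 mg/kg and 1 above. Limma called 5 as lower, where 4.27% of all genes were called in either direction and 2.09% of all genes as higher. Among the 5 was the erythroid transcription factor Klf1 (-4.12 ± 0.59, adjusted p = 0.0254). With the replicate number as a block in the fit, 0 were called. The list's median was -2.42 beside 0.08 over all genes. The count of 5 fell to 0 without vehicle replicate 1, to 1 without 60 mg/kg replicate 2 or either 90 mg/kg array, and to 2 without 60 mg/kg replicate 1, with medians of -3.24 to -1.60. Their summed intensity was 28954.5 to 54007.5 at vehicle, 31227.6 to 40438.9 at 30 mg/kg, 7735 to 12597.9 at 60 mg/kg and 7562.1 to 21262 at 90 mg/kg, and its part in the Blvrb values was not tested.

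The ferroportin probe was bright in every spleen array. Slc40a1 read 9353.7 and 9662.5 at vehicle, 10056.6 and 10376.1 at 30 mg/kg, 11265.7 and 11553.6 at 60 mg/kg, and 11375.4 and 13667.2 at 90 mg/kg. Every treated array lay above both vehicle arrays, by a small margin: the log2 difference was 0.39 ± 0.18 at 90 mg/kg (adjusted p = 0.215) and the slope 0.13 ± 0.05 (adjusted p = 0.132).

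The remaining members did not pass in spleen. Fth1 ranged from 16450.4 to 22635.5 over the 8 arrays and differed from vehicle by 0.15 ± 0.18 at 90 mg/kg (log2, adjusted p = 0.645). Cd163 ranged from 50.2 to 163.2, with 52.4 and 115.8 at 90 mg/kg (0.29 ± 0.39, adjusted p = 0.693). Hpx lay between 6.6 and 56.8 and Hamp between -4.6 and 32.5, both near background, and Hamp was not above background on either 90 mg/kg array.

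**Figure D3:**
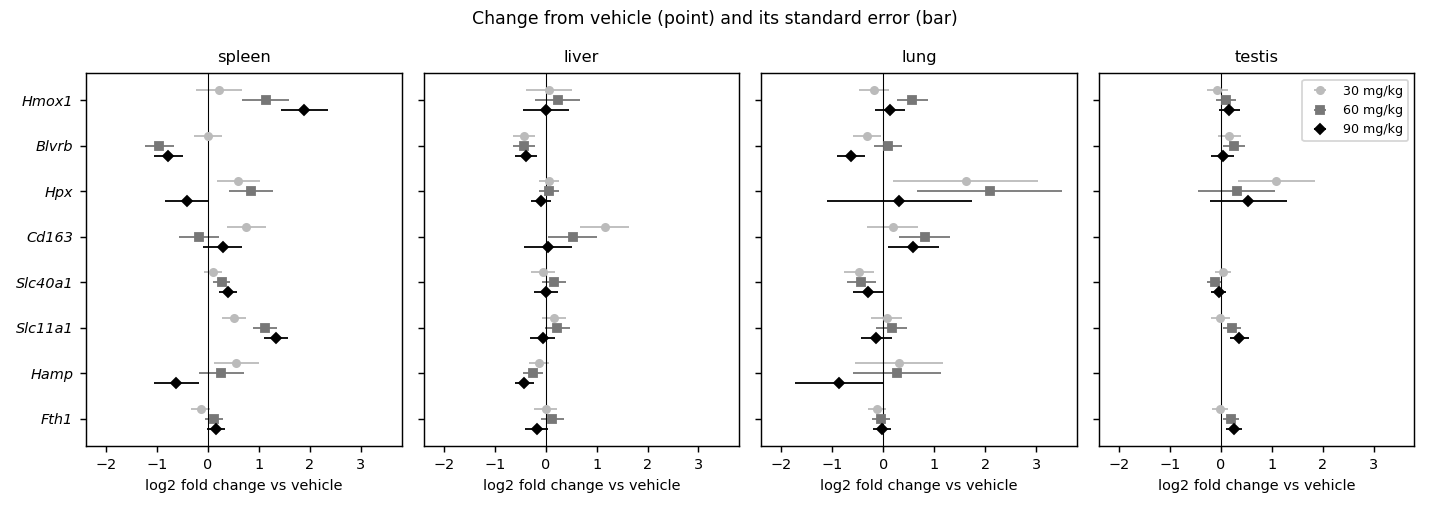
Log2 fold change from vehicle on the log2(intensity + 16) scale for the 8 members tested, by organ, with symbols for dose and bars for the standard error. The slopes of Slc11a1 and Hmox1 in spleen and the 90 mg/kg change of Slc11a1 there passed the test. The widest bars are those of Hpx and Hamp in lung, and those of Hpx in testis are wide too (SE 0.757).

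In liver, lung and testis no member passed at any dose or by slope. limma called 0 of 8 members in liver and in lung and 0 of 6 in testis, where 0% of all genes were called in liver and lung at each dose and 0% to 0.00924% in testis. By slope 0.00863% of all genes were called in liver, 0.0352% in lung and 0% in testis. Without adjustment, 1 member each had p under 0.05 at 30 mg/kg in liver (Cd163), by slope in liver (Hamp) and by slope in testis (Slc11a1). Over all genes, 568 and 1399 of 11586 had such a p in liver at 30 mg/kg and by slope, and 1068 of 10821 in testis by slope.

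Hepcidin in liver read 12218.8 and 11651.2 at vehicle, 10712.6 and 11080 at 30 mg/kg, 10544.8 and 9523.6 at 60 mg/kg, and 8687.6 and 9131.8 at 90 mg/kg. All treated arrays lay below both vehicle arrays, and both 90 mg/kg arrays below all others. The log2 difference at 90 mg/kg was -0.42 ± 0.19 (adjusted p = 0.468), from a mean of 11935 ± 401 to 8910 ± 314 (SD, n = 2 each), and the slope was -0.14 ± 0.05 per 30 mg/kg (adjusted p = 0.322). Hamp2 read 2207.3 and 2516 at vehicle and 4494.4 and 1229.5 at 90 mg/kg, so its groups overlapped. Of the 12 acute phase genes tested in liver, which include haptoglobin, 0 were called at 90 mg/kg, with 4 at an unadjusted p under 0.05 and a median of 0.29 beside -0.01 over all genes. Of all genes in liver, 1291 of 11586 had such a p at that dose.

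Blvrb in liver read 2607.8 and 2632.1 at vehicle and 1677.4 to 2230.2 on the 6 treated arrays, all below vehicle. At 90 mg/kg the log2 difference was -0.39 ± 0.22 (adjusted p = 0.566). Hpx in liver read 19213.9 and 22635.5 at 90 mg/kg against 22635.5 and 22061.8 (log2 -0.10 ± 0.20, adjusted p = 0.881), at the top of the range. Its dimmer probe, between 8308.4 and 11869.1, gave 0.28 ± 0.23 (adjusted p = 0.701). Hmox1 in liver stayed dim, at 61.8 and 18.2 at 90 mg/kg against 24.4 and 49.8 (0.00 ± 0.45), Slc40a1 gave 0.01 ± 0.24, and Slc11a1 gave -0.06 ± 0.24. The macrophage marker sum in liver was 3346.9 to 4079.9 at vehicle and 2664.7 to 2973.8 at 90 mg/kg.

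Lung values of Hpx and Hamp spread widely within doses. Hpx read 108.6 and 1067.1 at vehicle, 1090.6 and 1127.8 at 30 mg/kg, 838.2 and 2836.1 at 60 mg/kg, and 2013.1 and 86.7 at 90 mg/kg. Hamp read 248.3 and 747 at vehicle, 424.9 and 680.5 at 30 mg/kg, 420.6 and 657.5 at 60 mg/kg, and 638.1 and 76.7 at 90 mg/kg. Both genes were lowest on the same arrays, vehicle replicate 1 and 90 mg/kg replicate 2. On these arrays the median of 12 hepatocyte markers stood at 0.483% and 0.2% of the vehicle liver level, and on the other 6 lung arrays at 3.66% to 10.3%. Hpx stood at 0.486% and 0.388% of its liver level on those arrays and at 3.75% to 12.7% on the others. Hamp stood at 2.08% and 0.643% on the low arrays, above the marker median of each, and at 3.52% to 6.26% on the others. The hepatocyte markers' summed intensity in lung ran from 1440.2 to 33319.4, with 7 to 9 of 12 above background, and the share in each array was set by their median. It exceeded the Hpx and Hamp levels on vehicle replicate 2, both 30 mg/kg arrays and 90 mg/kg replicate 1. Both genes were floored at 0 there after the subtraction. The differences that follow therefore rest on vehicle replicate 1 and 90 mg/kg replicate 2. With that share of the liver level subtracted, Hamp in lung differed from vehicle by -1.85 at 30 mg/kg (log2, adjusted p = 0.905; 0.30 before subtraction) and by -0.79 at 90 mg/kg (0.876), and Hpx by -0.03 at 30 mg/kg (1) and 0.90 at 90 mg/kg (0.89).

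**Figure D4:**
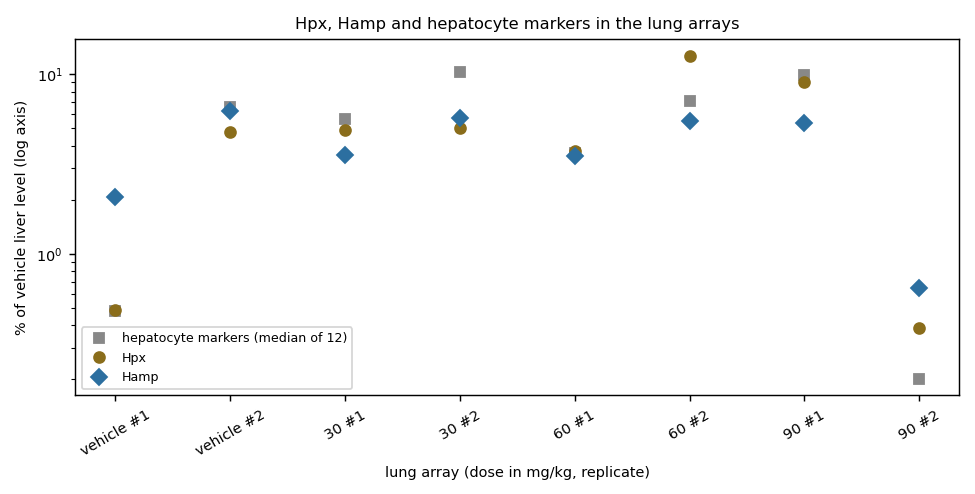
Hpx, Hamp and the median of 12 hepatocyte markers on the 8 lung arrays, each as a percent of its vehicle liver level, on a log axis. Vehicle replicate 1 and 90 mg/kg replicate 2 are the low arrays for all 3, with the marker median at 0.483% and 0.2%.

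The log2 difference at 90 mg/kg in lung had a wide error for Hpx (0.31 ± 1.43) and Hamp (-0.87 ± 0.86). The other members were steadier. Slc40a1 and Blvrb also read high in vehicle liver, with means of 4011.95 and 2619.95. The hepatocyte share was 0.483% and 6.61% on the vehicle lung arrays and 9.89% and 0.2% at 90 mg/kg. Their lung values below are given without its subtraction. Blvrb read 959.4 and 582.9 at vehicle and 547.1 and 418.3 at 90 mg/kg (-0.63 ± 0.28, adjusted p = 0.446), while erythroid markers summed to 4056.3 to 6209.7 and 2082.9 to 2216.6. Slc40a1 read 699.3 and 478.1 at vehicle and 512.2 and 424.3 at 90 mg/kg (-0.30 ± 0.29, adjusted p = 0.763). Slc11a1 gave -0.14 ± 0.31, Hmox1 0.13 ± 0.30, Fth1 -0.02 ± 0.18 and Cd163 0.59 ± 0.50. At 60 mg/kg Hmox1 read 49.4 and 38.2, above the other lung arrays (log2 0.57 ± 0.30, adjusted p = 0.65). Cd163 read 12.3 and 74.4 there (0.82 ± 0.50, adjusted p = 0.7015). Of 12 macrophage markers tested, 11 lay above 0 and 1 below at that dose, with 0 called and a median of 0.81 beside -0.03. Their sum was 2274.7 on replicate 1 and 5239.2 on replicate 2, against 2106 to 2522.7 at vehicle.

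In testis the members were low apart from Fth1. Slc11a1 read 103.2 and 88.4 at vehicle and 107.3 and 151 at 90 mg/kg (0.36 ± 0.18, adjusted p = 0.66), and Fth1 read 6024.8 and 7200 against 7633.4 and 8172 (0.26 ± 0.16, adjusted p = 0.678). Both 90 mg/kg arrays lay above both vehicle arrays for each gene, but neither change passed the test. Blvrb ranged from 113.6 to 200.6 and Slc40a1 from 92.3 to 113.1 over the 8 arrays, with overlapping groups. Hpx was above background on 4 testis arrays and Hamp on 1; both were highest on 30 mg/kg replicate 1, at 103.9 and 46.8, where the hepatocyte markers stood at 1.18% of the liver level.

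The 90 mg/kg effects were compared between organs by a test of the difference itself. The effect on Slc11a1 was larger in spleen than in liver by 1.39 ± 0.36 (log2, adjusted p = 0.0249), where 1 of 8 members and 5.86% of all genes differed, and larger than in lung by 1.47 ± 0.36 (adjusted p = 0.0492), where 1 of 8 members and 1.09% of all genes differed. Against testis the difference was 0.97 ± 0.36 (adjusted p = 0.144). For Hmox1 the spleen effect exceeded that in liver by 1.89 ± 0.59 (adjusted p = 0.0609), in lung by 1.76 ± 0.59 (adjusted p = 0.146) and in testis by 1.72 ± 0.59 (adjusted p = 0.11). limma called 0 of 8 members for spleen and testis (3.46% of all genes), liver and lung (0.551%), liver and testis (0.362%), and lung and testis (0.0157%). For spleen and testis 3 members had an unadjusted p under 0.05, as did 2086 of all 12266 genes. For liver and lung, liver and testis, and lung and testis 0 members had one. The Slc11a1 call between spleen and liver ended without spleen vehicle replicate 2, spleen 90 mg/kg replicate 2, either liver vehicle array or liver 90 mg/kg replicate 1 (adjusted p up to 0.13), and that between spleen and lung ended without any 1 of its 8 arrays other than spleen 90 mg/kg replicate 1 (0.0559 to 0.191).

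The wider set of heme and iron genes comprised 57 genes outside the members, of which 50 were on the array. A separate list held 18 targets of the transcription factors Nrf2 and Bach1, of which 16 were on the array. In spleen at 90 mg/kg 44 of the 57-gene set were tested, of which 2 rose and 2 fell (4.27% of all genes were called), with a median of 0.14 beside 0.08 over all genes. Spic, the transcription factor of red pulp macrophages, read 658 and 676.4 at vehicle and 2242.3 and 1530.3 at 90 mg/kg (log2 1.45 ± 0.30, adjusted p = 0.0446). It is also among the called resident macrophage markers described above. Id1, a target of BMP signalling, read 74.9 and 64.5 against 176.3 and 211.1 (1.29 ± 0.22, adjusted p = 0.0334). The 90 mg/kg arrays of both genes lay above their vehicle arrays. When each of the 8 spleen arrays was left out in turn, the Spic call ended in 7 of 8 fits, all but that without 60 mg/kg replicate 1 (log2 1.18 to 1.73, adjusted p up to 0.131). The Id1 call stayed in 3 of 8, those without either 30 mg/kg array or 60 mg/kg replicate 1 (1.17 to 1.41, adjusted p up to 0.162).

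The transferrin receptor Tfrc, which brings iron into red cell precursors, fell. It read 7391.1 and 3275.9 at vehicle, 711.8 and 639.3 at 60 mg/kg and 441.7 and 959.4 at 90 mg/kg (-2.84 ± 0.46, adjusted p = 0.034, and -2.89 ± 0.46, adjusted p = 0.0282), with no overlap, and it is also one of the erythroid markers described above. The metal transporter Slc39a8 fell from 22.5 and 18.1 to 4.6 and 5.5 at 90 mg/kg, not above background there, so vehicle was at least 1.52-fold brighter (adjusted p = 0.0484). By slope the ferroxidase ceruloplasmin, Cp, rose (0.38 ± 0.08 per 30 mg/kg, adjusted p = 0.0396), as did Spic (0.50 ± 0.09, adjusted p = 0.0238) and Id1 (0.39 ± 0.08, adjusted p = 0.0331). The transferrin receptor gene Tfr2 fell by slope (-0.66 ± 0.15, adjusted p = 0.0416), as did Tfrc (-1.09 ± 0.19, adjusted p = 0.0201), Slc39a8 (-0.24 ± 0.06, adjusted p = 0.0452) and the quinone reductase Nqo1 (-0.46 ± 0.09, adjusted p = 0.0277), an Nrf2 target. With each spleen array left out in turn, the Tfrc call at 90 mg/kg ended without vehicle replicate 1, 60 mg/kg replicate 2 or either 90 mg/kg array (adjusted p up to 0.0801). Its call at 60 mg/kg stayed in 3 of 8 fits, those without vehicle replicate 2 or either 90 mg/kg array (adjusted p up to 0.192), and the Slc39a8 call at 90 mg/kg in 0 of 8 (up to 0.192). With the testis share taken off the spleen arrays, both Slc39a8 calls ended (adjusted p = 0.127 at 90 mg/kg and 0.0822 by slope). The slope calls of Spic and Tfrc ended without vehicle replicate 1 or 90 mg/kg replicate 1 (up to 0.128 and 0.125), and that of Nqo1 also without 60 mg/kg replicate 2 or 90 mg/kg replicate 2 (up to 0.138). The Id1 slope call stayed only without either 30 mg/kg array, those of Cp and Slc39a8 only without 30 mg/kg replicate 1, and that of Tfr2 only without vehicle replicate 2. Every one of these values kept its direction.

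Of the 14 Nrf2 and Bach1 targets tested in spleen, limma called 0 at 90 mg/kg, with 6 at an unadjusted p under 0.05 and a median of 0.20 beside 0.08 over all genes. Of all genes in spleen, 2757 of 11101 had such a p. In liver 14 of 15 were above 0 at 90 mg/kg, with a median of 0.35 beside -0.01. Limma called 0 of them, and 4 had an unadjusted p under 0.05. Of all genes in liver, 49.21% were above 0 and 1291 of 11586 had such a p. The smallest p-values in liver were those of the glutathione transferase Gsta2 (1.20 ± 0.35, adjusted p = 0.269) and the epoxide hydrolase Ephx1 (0.75 ± 0.22, adjusted p = 0.277). Of the 57-gene set, limma called 0 in liver, lung or testis at any dose. At 30, 60 and 90 mg/kg, 0, 3 and 5 of 44 had an unadjusted p under 0.05 in liver, 1, 7 and 3 of 40 in lung, and 3, 3 and 2 of 43 in testis. Over all genes these counts were 568, 812 and 1291 of 11586 in liver and 671, 1014 and 1311 of 11372 in lung. In testis they were 487, 977 and 818 of 10821. Over both lists, the smallest p-values at 90 mg/kg belonged to Socs3, a feedback inhibitor of cytokine signalling (0.62 ± 0.21, adjusted p = 0.306), and Ephx1 (0.51 ± 0.19, adjusted p = 0.375) in lung, and to the lactoferrin gene Ltf and Id1 in testis (adjusted p = 0.647 for both), where vehicle was not above background and 90 mg/kg was at least 1.22-fold and 1.345-fold brighter.

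The genes whose pattern was most like that of each member were found by Pearson's r over the 16 group means after each organ's mean was taken off, a description over groups that share arrays and vehicle. Hmox1 was nearest to Trafd1 (r = 0.95), C1qa (0.93) and Fcgr1 (0.93), and Slc11a1 to Prkx (0.92), Il15 (0.90) and Lamp1 (0.90), among 8561 genes. Blvrb was nearest to Oaz1 (0.95), Prdx2 (0.92) and Cdr2 (0.91). Hpx was nearest to Arg1 (0.96), Ambp (0.95) and Azgp1 (0.94), and Hamp to Mup6 (0.96), Mup2 (0.94) and Apoa1 (0.93), over groups in which the lung arrays carried hepatocyte markers. Slc40a1 was nearest to Wif1 (0.83), Sec13 (0.82) and Mocs2 (0.82), Fth1 to Rpl3 (0.84), Spn (0.82) and Commd6 (0.79), and Cd163 to Pak3 (0.85), Plppr1 (0.84) and Atp10d (0.79).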

How the data were processed

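Total RNA of whole organs was labelled as biotinylated cRNA and read on 1-colour Illumina arrays, per the labels' protocols. The deposited intensities were made with GenomeStudio according to the submitters' processing notes, which give no version. From the values, the authors' background subtraction and a quantile normalization over all 32 arrays can be read: values of equal rank differed between arrays by at most 1. Arrays of the same group had r = 0.9745 to 0.9912 (log2, all probes). A second deposited table held 64 per-sample columns (32 of signal, 32 of detection p) whose names could not be tied to samples, and it was not used. Of 25697 probes, 23978 had 1 gene symbol, 0 several and 1719 none, and 23962 were matched by Entrez ID.

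Here intensities were floored at 0, and 16 was added before log2. Tests in an organ covered genes above background (1.645 times the noise SD) on at least 2 of its 8 arrays: 11101 in spleen, 11586 in liver, 11372 in lung and 10821 in testis. Each organ was fitted with limma 3.58.1 in R 4.3.3, each dose against vehicle and as a slope per 30 mg/kg, and organs were compared in 1 fit over all arrays. Calls used Benjamini-Hochberg adjusted p under 0.05 over all genes tested. Simulated log2 values with independent arrays were run only through the fit of 90 mg/kg against vehicle in each organ. The slopes and the comparisons between organs were not simulated. The members and gene lists were chosen with earlier results of these data known, and the promoter motifs other than TGACNNNGC and CAGTGN after the members' values were seen. The text names all members, each called gene of the heme and iron lists (the 2 with the smallest p at 90 mg/kg where none was called) and the 3 genes most like each member. Marker genes and Hamp2 were named after their values were seen. Alternatives and their effect are in the closing section. Figures were drawn with matplotlib 3.10.9 in Python 3.11.15.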

Additional observations from a re-analysis of the deposited data

Results flagged for a closer look

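For Slc11a1 the 90 mg/kg effect differed between organs by a test of the difference itself: it was 1.39 ± 0.36 larger in spleen than in liver (log2, limma, adjusted p = 0.0249) and 1.47 ± 0.36 larger in spleen than in lung (adjusted p = 0.0492). Both spleen arrays at 90 mg/kg lay above both spleen vehicle arrays, whereas in liver and in lung the groups overlapped. In alternatives that changed the fit or left out 1 array, the first difference was called in 8 of 14 and the second in 4 of 14.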

How the results depend on the processing

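Alternatives used an offset of 50, no detection filter, the mean of a gene's probes, 1 fit over 32 arrays, the replicate number as a block, cyclic loess, subtraction of a testis share, each array left out in turn, and, added after seeing the data, subtraction of a hepatocyte share. Of 28 counts of members called, 11 changed under at least 1 of them, and 6 of these moved by over 1.5 times or from or to 0. Of 2958 values of single members under alternatives, 174 changed sign, none of them called in either setting. For spleen at 60 mg/kg, where the main count was 0, offset 50 and the mean of all probes gave 1 and the 32-array fit gave 2. For spleen at 90 mg/kg (main count 1), offset 50 and the 32-array fit gave 2, and no filter gave 0, as did every left-out array (range 0 to 0). The spleen slope count (main 2) was 1 with no filter, 3 in the 32-array fit, which also called Blvrb, and 0 to 2 without an array. Counts of differing 90 mg/kg effects were 1 for spleen and liver (2 with offset 50, 0 with only those 8 arrays, 0 to 2 without an array), 1 for spleen and lung (2 with offset 50, 0 with no filter, with only those 8 arrays and with the hepatocyte share taken off, 0 to 1 without an array) and 0 for spleen and testis (1 with offset 50, 0 to 1 without an array). The cause was not tested.

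Same-numbered arrays mostly did not deviate together: 1 of 6 pairs of groups in each organ correlated above 0.1. In spleen, where r ran from -0.232 to 0.404, those of 1 pair of groups did deviate together. The numbers were not taken as pairs in the main fits. With the replicate block, 0 members were called in spleen at 90 mg/kg (Slc11a1 adjusted p = 0.0649) and 1 by slope (Hmox1 adjusted p = 0.0537).

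With 2 arrays a group, changes of the size of those in liver Hamp were not resolved. Dim probes (Hmox1 outside spleen, Cd163) are limited by background, and Fth1 and liver Hpx by the top of the intensity range.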
